A study of Mus musculus with 8 samples.

Results

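Matrix metalloproteinases (MMPs) and the tissue inhibitors of metalloproteinases (TIMPs) were followed as 10 genes in mouse embryonic fibroblasts: Mmp2, Mmp3, Mmp9, Mmp10, Mmp11, Mmp13, Mmp14, Timp1, Timp2 and Timp3. A gene was taken when a transcript cluster of the array carried its symbol and no other. All 10 of 10 were found, each with 1 cluster, among the 17501 genes named in this way. The study compared fibroblasts grown from Smurf2-/- and wild-type mouse embryos. Smurf2 is a HECT-type ubiquitin ligase that acts on Smad proteins of the TGF-beta pathway, among other targets. RNA was hybridised to 8 Affymetrix arrays. Genotype, background and passage class were crossed with 1 array per combination, so that each level of each factor had 4 arrays.

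The Smurf2-/- cells of the mixed BL background (129SVJ crossed with NIH Black Swiss) were taken at passage 33 (late) and passage 6 (early), and those of the C57B6 background at passage 28 (late) and passage 7 (early). The wild-type cells were taken at these passages in each background. Per the labels, the mixed BL cultures came from a mix of 3 embryos for Smurf2-/- and of 2 for wild-type, and each C57B6 culture from 1 embryo. The labels name no treatment, and for every group the descriptions speak of E14.5 embryos while the growth protocol names day 11.5. Whether late and early arrays were passages of the same culture is not stated. The p-values therefore rest on the spread between single arrays, which may be technical and also holds any interaction left out of the fit. If late and early arrays shared a culture, each genotype and each background had fewer independent cultures than arrays. The fits treated the 8 arrays as independent, so genotype and background intervals may then be too narrow. All comparisons below share the same 8 arrays.

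MMPs are zinc-dependent proteinases that cleave collagens, proteoglycans and other proteins outside the cell. They are made as inactive proenzymes whose propeptide must be removed or displaced, and TIMPs block the active enzymes by filling the catalytic cleft. Fibroblasts are a main source of both, and in culture the stromelysin and collagenase genes are known to be induced by growth factors, cytokines and phorbol esters through AP-1, the dimer of Fos and Jun proteins. In this series the deposited values, taken as log2, were already centred on each cluster's median over the 8 arrays. Values therefore compare arrays within a gene and never the level of a gene with that of another.

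Mmp13, Mmp3 and Mmp10 lie in the MMP gene cluster on mouse chromosome 9, and their upstream sequences are shown because the AP-1 motif is present in all 3 while their ranges over the arrays were very unlike. The 100 bases before the annotated gene start are given from the RefSeq promoter windows (build GRCm38.p6, plus strand), with the AP-1 heptamer TGAGTCA, read on either strand, in capitals. The Mmp13 stretch is chr9:7272414-7272513, the Mmp3 stretch chr9:7445722-7445821 and the Mmp10 stretch chr9:7502242-7502341.
Mmp13: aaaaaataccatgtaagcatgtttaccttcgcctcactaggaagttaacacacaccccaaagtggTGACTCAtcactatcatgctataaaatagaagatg
Mmp3: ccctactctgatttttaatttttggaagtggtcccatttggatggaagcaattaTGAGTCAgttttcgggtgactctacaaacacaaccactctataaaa
Mmp10: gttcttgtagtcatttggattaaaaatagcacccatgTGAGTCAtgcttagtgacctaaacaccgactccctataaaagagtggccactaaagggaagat
The motif begins 35 bases before the gene start in Mmp13, 46 in Mmp3 and 63 in Mmp10. Promoter windows of 300 bases (250 before and 50 after the start) were given for 8 of the 10 genes. AP-1 letters were found in 3 of these 8 and in 5.2% of all 32851 windows. The Ets core GGAAG, searched on both strands, whose letters cannot overlap those of the AP-1 heptamer, was found in 7 of the 8 and in 71.4% of all windows. A match of letters is a description of the sequence and says nothing of binding.

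Over all genes, the arrays were separated first by the late Smurf2-/- arrays, which stood at 33.3 in mixed BL and 35.3 in C57B6 on the first principal component (29.6% of the variance), against -27.6 to 4.59 for the other arrays. Smurf2 ranged from -1.21 to -0.43 in Smurf2-/- arrays and from 0.43 to 0.96 in wild-type arrays (log2 difference -1.57 ± 0.12, SE, limma adjusted p = 0.0484). Xist, expressed from the inactive X chromosome of female cells, ranged from -2.07 to -1.53 in Smurf2-/- arrays and from 1.53 to 3.20 in wild-type arrays, and the Y-linked genes Uty and Kdm5d were higher in Smurf2-/- by 2.35 ± 0.13 and 2.27 ± 0.15 (SE). Genotype and this difference in sex-linked expression therefore cannot be told apart in any genotype value below, which bears first on the X-linked Timp1. Because values are centred, a marker that is absent cannot be told from one that is constant, and the fibroblast identity of the cells could not be checked by level. In bulk RNA, fewer cells of a type and less RNA per cell cannot be told apart.

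Late-passage cells were compared with early-passage cells first. Among the stromelysins, Mmp3 (cluster 10583071), which degrades proteoglycans, laminin and fibronectin and activates other proenzymes, had the widest spread of the family. At late passage it stood at -0.75 in Smurf2-/- mixed BL, -0.89 in Smurf2-/- C57B6, -0.57 in wild-type mixed BL and -0.70 in wild-type C57B6. At early passage it stood at 0.57 in Smurf2-/- mixed BL, 0.93 in Smurf2-/- C57B6, 0.75 in wild-type mixed BL and 4.12 in wild-type C57B6. The late and early arrays did not overlap, and the early wild-type C57B6 array lay far above the other 3 early arrays, while the 4 late arrays lay close together. The means were -0.73 ± 0.13 at late and 1.59 ± 1.69 at early passage (SD, n = 4 each). The fitted late-minus-early difference was -2.32 ± 0.68 (SE, 95% interval -3.98 to -0.66), or 4.99-fold lower, with a limma adjusted p of 0.194. Only 8 of the 17501 genes had a lower fitted passage difference, but the spread was large, and without the early wild-type C57B6 array the difference was -1.50. The range of Mmp3 over the arrays, 5.01 log2 units, was the 11th widest of all genes, against a median range of 0.54.

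Mmp13 (cluster 10583044), collagenase-3, is the main interstitial collagenase of rodents. Its late values were -1.02 in Smurf2-/- mixed BL, -0.93 in Smurf2-/- C57B6, 0.050 in wild-type mixed BL and -1.03 in wild-type C57B6. Its early values were 0.16 in Smurf2-/- mixed BL, -0.050 in Smurf2-/- C57B6, 1.03 in wild-type mixed BL and 2.04 in wild-type C57B6. Each late array was below its early partner, but the late wild-type mixed BL array overlapped the early range. The difference was -1.53 ± 0.37 (SE), or 2.88-fold lower, with a limma adjusted p of 0.156, and its 95% interval ran from -2.44 to -0.61. As for Mmp3, the early wild-type C57B6 array was the highest of all, and the pair that holds it differed most, by -3.07.

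Mmp10 (cluster 10583090), stromelysin-2, is a close paralog of Mmp3 and lies near it in the cluster, with the AP-1 motif shown above. It varied little. Its 4 late values lay between -0.092 and 0.053 and its 4 early values between -0.042 and 0.12. The late and early arrays overlapped, and the difference was -0.048 ± 0.065 (SE, 95% interval -0.21 to 0.11, limma adjusted p = 0.711). A range at least as wide as that of Mmp10, 0.21 log2 units, was found for 86.9% of genes. Whether the Mmp10 probes were above background is unknown here, so a flat value may stand for a constant transcript or for none.

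**Figure D1:**
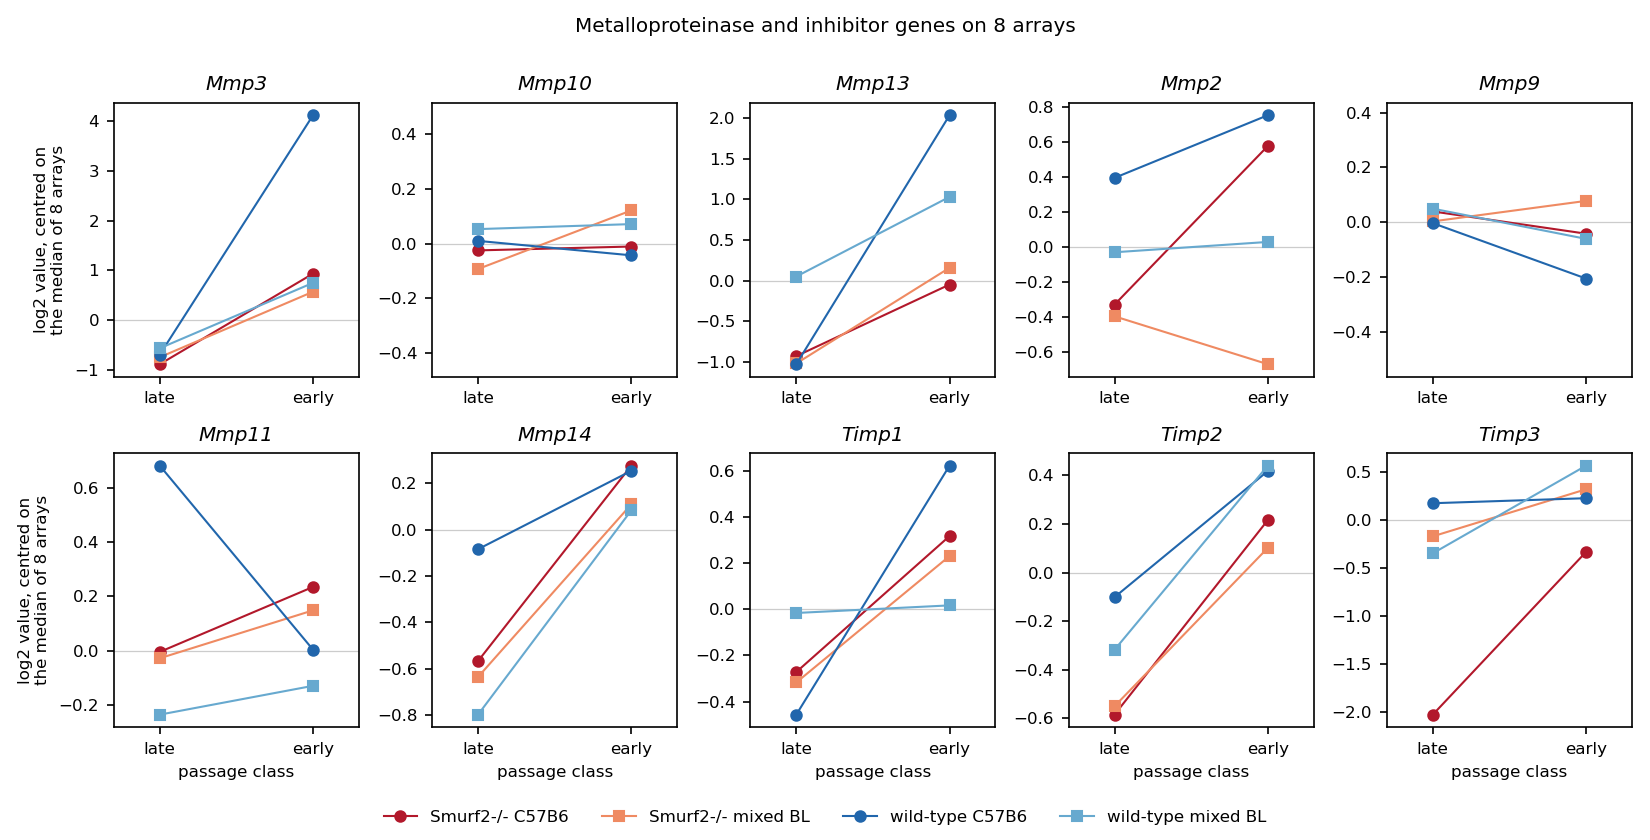
Log2 values of the 10 genes on the 8 arrays, each centred on the gene's median over the arrays (vertical axis, scaled separately per gene), at late and early passage. Points are single arrays, circles C57B6 and squares mixed BL, and lines join the late and early arrays of the same genotype and background. Mmp3, Mmp14, Timp1 and Timp2 do not overlap between late and early arrays, and Mmp9 and Mmp10 stay within 0.28 and 0.21 log2 units.

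The cluster on chromosome 9 holds 10 MMP genes in a row in the RefSeq gene table, of which 6 had values under a symbol of their own. Listed along the chromosome, the fitted late-minus-early differences were -1.53 for Mmp13, -0.61 ± 0.18 (SE) for Mmp12, the macrophage elastase gene, -2.32 for Mmp3, -0.048 for Mmp10, 0.12 ± 0.075 (SE) for Mmp20, the enamel proteinase gene, and -0.032 ± 0.060 (SE) for Mmp7, the matrilysin gene. Mmp13, Mmp12 and Mmp3, at the Mmp13 end, were thus lower in each of the 4 late arrays than in its early partner, whereas Mmp10, Mmp20 and Mmp7 differed by at most 0.29 in any pair. None of the 6 passed the test, with limma adjusted p between 0.156 and 0.798.

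**Figure D2:**
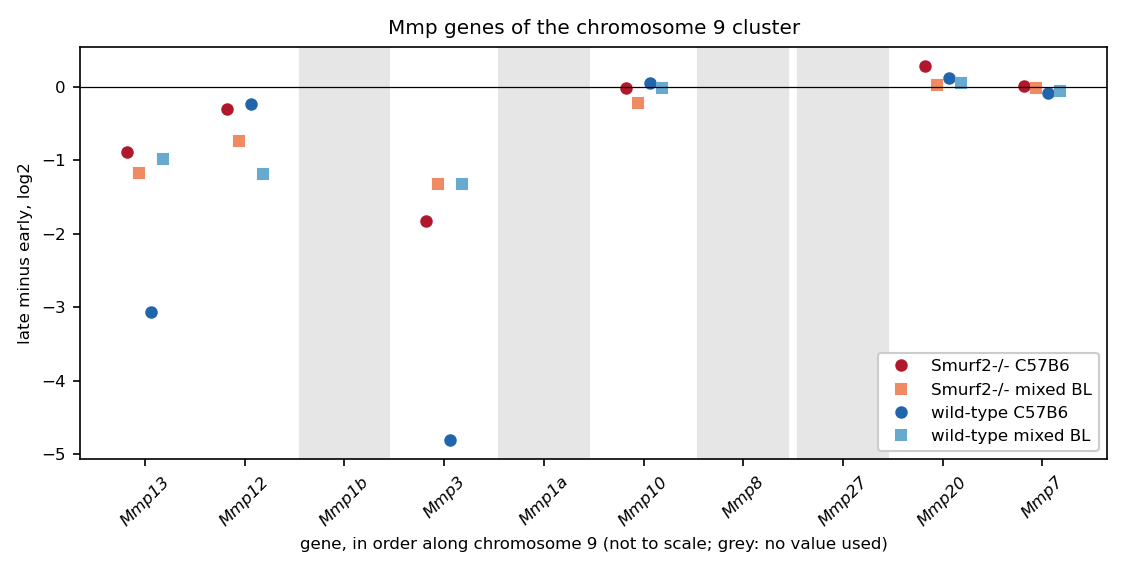
Late-minus-early log2 differences (vertical axis) of the MMP genes of the chromosome 9 cluster, in their order along the chromosome. Each point is 1 array minus 1 array of the same genotype and background, circles C57B6 and squares mixed BL, and grey columns are genes with no value used. The points of Mmp13, Mmp12 and Mmp3 all lie below 0, down to -4.82 for Mmp3 in wild-type C57B6, and those of Mmp10, Mmp20 and Mmp7 lie between -0.21 and 0.29.

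The gelatinases cleave denatured collagen and the collagen of basement membranes. Mmp2 (cluster 10573924), which fibroblasts secrete constitutively, was at -0.39 in Smurf2-/- mixed BL, -0.33 in Smurf2-/- C57B6, -0.029 in wild-type mixed BL and 0.39 in wild-type C57B6 at late passage. At early passage it was at -0.67 in Smurf2-/- mixed BL, 0.58 in Smurf2-/- C57B6, 0.029 in wild-type mixed BL and 0.75 in wild-type C57B6. The late and early ranges overlapped, and the pairs differed in sign, since only Smurf2-/- mixed BL was higher at late passage. The difference was -0.26 ± 0.19 (SE, limma adjusted p = 0.499), and -0.091 without the early Smurf2-/- C57B6 array. Mmp9 (cluster 10478633), the inducible gelatinase, lay between -0.0032 and 0.050 in late arrays and between -0.21 and 0.078 in early arrays, a difference of 0.080 ± 0.065 (SE, 95% interval -0.080 to 0.24, limma adjusted p = 0.549).

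Mmp14 (cluster 10415052) encodes the membrane-type proteinase MT1-MMP, which sits on the cell surface, cleaves fibrillar collagen and activates the Mmp2 proenzyme. At late passage it was at -0.64 in Smurf2-/- mixed BL, -0.57 in Smurf2-/- C57B6, -0.80 in wild-type mixed BL and -0.084 in wild-type C57B6. At early passage the 4 values lay close together, at 0.11 in Smurf2-/- mixed BL, 0.28 in Smurf2-/- C57B6, 0.084 in wild-type mixed BL and 0.25 in wild-type C57B6. No late array reached an early value, and late wild-type C57B6 stood closest. The difference was -0.70 ± 0.12 (SE), 1.63-fold lower, with a limma adjusted p of 0.116. Mmp11 (cluster 10370037), stromelysin-3, which furin activates inside the cell, lay between -0.24 and 0.68 in late and between -0.13 and 0.24 in early arrays. Its difference was 0.039 ± 0.19 (SE, limma adjusted p = 0.925), and -0.18 without the late wild-type C57B6 array or -0.062 without the early one. That late array, at 0.68, was the only late array above its early partner, by 0.68.

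The 3 inhibitor genes were each lower in all 4 late arrays than in their early partners. Timp2 (cluster 10393559) inhibits MMPs and also bridges Mmp14 to the Mmp2 proenzyme at the cell surface. It was at -0.55 in Smurf2-/- mixed BL, -0.58 in Smurf2-/- C57B6, -0.32 in wild-type mixed BL and -0.10 in wild-type C57B6 at late passage. At early passage it was at 0.10 in Smurf2-/- mixed BL, 0.22 in Smurf2-/- C57B6, 0.44 in wild-type mixed BL and 0.42 in wild-type C57B6. The groups did not overlap, and the pairs differed by amounts close to each other, from -0.80 to -0.52. The difference was -0.68 ± 0.067 (SE, 95% interval -0.85 to -0.52), 1.60-fold lower, with a limma adjusted p of 0.0583. With a mean-variance trend in the fit, on centred values that hold no mean level, the limma adjusted p was 0.0393, which passes the 0.05 threshold, and over the other alternatives it ran up to 0.336. By p, Timp2 was the 16th of the 17501 genes for passage, and the smallest p of the 10.

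Timp1 (cluster 10598976), an X-linked inhibitor gene that serum and cytokines induce, was at -0.32 in Smurf2-/- mixed BL, -0.27 in Smurf2-/- C57B6, -0.016 in wild-type mixed BL and -0.46 in wild-type C57B6 at late passage. At early passage it was at 0.23 in Smurf2-/- mixed BL, 0.32 in Smurf2-/- C57B6, 0.016 in wild-type mixed BL and 0.62 in wild-type C57B6. The groups did not overlap, but the wild-type mixed BL pair differed by only -0.033. The difference was -0.56 ± 0.16 (SE, limma adjusted p = 0.188), 1.48-fold lower. Timp3 (cluster 10365482) encodes the inhibitor that binds to the matrix and also blocks several ADAM proteinases. Late values were -0.17 in Smurf2-/- mixed BL, -2.03 in Smurf2-/- C57B6, -0.35 in wild-type mixed BL and 0.17 in wild-type C57B6. Early values were 0.32 in Smurf2-/- mixed BL, -0.33 in Smurf2-/- C57B6, 0.56 in wild-type mixed BL and 0.22 in wild-type C57B6. The late Smurf2-/- C57B6 array lay far below all others, and the groups overlapped. The difference was -0.79 ± 0.38 (SE, limma adjusted p = 0.345), and -0.39 without that array.

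Taken over the 10 genes, none passed the limma test for passage at an adjusted p under 0.05, as 0.0171% of all genes did. The fitted difference was below 0 for 8 of the 10 and for 42.5% of all genes, with a median of -0.62 over the 10 and 0.028 over all genes. In 6 of the 10 (Mmp3, Mmp13, Mmp14, Timp1, Timp2 and Timp3) every late array was below its early partner, against 11.9% of all genes. In 4 of the 10 the late arrays lay wholly below the early arrays, against 4.59% of all genes. An unadjusted p under 0.05 with a lower value was found for 5 of the 10 and for 10.3% of all genes. This count stayed between 5 and 7 when any 1 array was left out. The 10 genes and the lists below were chosen with earlier results of these data known. Counts set beside shares of all genes, here and below, are therefore descriptions and no test of enrichment.

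The size of the passage difference by genotype and background was read from the single pairs. In Smurf2-/- mixed BL the genes lower by at least 1 log2 unit were Mmp3 (-1.32) and Mmp13 (-1.18), 2 of 10, against 3.23% of all genes. In Smurf2-/- C57B6 they were Mmp3 (-1.82) and Timp3 (-1.69), 2 of 10 against 3.27%. Wild-type mixed BL had 1, Mmp3 (-1.32), against 2.73%. Wild-type C57B6 had 3, Mmp3 (-4.82, 28.2-fold), Mmp13 (-3.07, 8.37-fold) and Timp1 (-1.08, 2.11-fold), against 1.68%. Mmp3 was thus past this size in each of the 4 pairs.

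**Figure D3:**
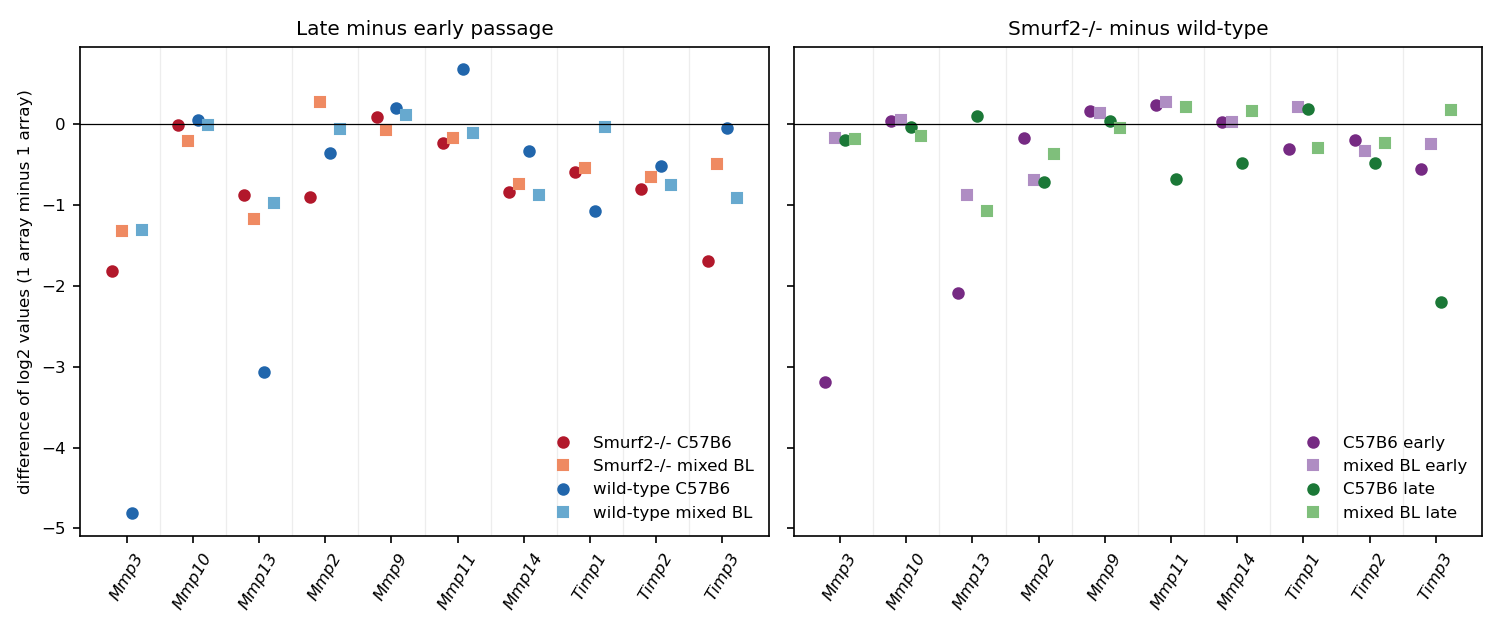
Differences of log2 values between single arrays (vertical axis) for the 10 genes, late minus early passage on the left and Smurf2-/- minus wild-type on the right. Each point is 1 array minus its partner, circles C57B6 and squares mixed BL. Mmp3 lies at -1.32 or below in all 4 passage pairs, while its genotype difference is -3.19 in early C57B6 cells and between -0.19 and -0.18 in the other pairs.

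Whether the passage difference depended on genotype or background was tested as an interaction. With genotype, the difference in Smurf2-/- cells minus that in wild-type cells was 1.50 ± 1.31 (SE) for Mmp3 and 0.99 ± 0.68 for Mmp13. Within Smurf2-/- cells the passage difference was -1.57 for Mmp3 and -1.03 for Mmp13, and within wild-type cells it was -3.07 and -2.02. None of the 10 interactions passed, with limma adjusted p rounded to 1 for all, and 0.0% of all genes were called (5.35% at an unadjusted p under 0.05). With 1 array left out the Mmp13 interaction ran from 0.29, without the early wild-type C57B6 array, to 1.70, without the early wild-type mixed BL array. Timp2 had nearly the same passage difference in Smurf2-/- cells, -0.73 ± 0.10, as in wild-type cells, -0.64 ± 0.10 (SE), with an interaction of -0.088 ± 0.15 (95% interval -0.46 to 0.29).

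With background, the passage difference in mixed BL minus that in C57B6 was 0.74 ± 0.23 (SE, limma adjusted p = 0.449) for Mmp2, which differed by 0.11 ± 0.16 in mixed BL and by -0.63 ± 0.16 in C57B6. Mmp3 differed by -1.32 ± 0.83 in mixed BL and by -3.32 ± 0.83 in C57B6 (interaction 2.00 ± 1.17, limma adjusted p = 0.718). Again 0.0% of all genes were called for this interaction, and 9.19% had an unadjusted p under 0.05, of the 10 Mmp2 alone. Background cannot be told apart here from the span of passages, 6 to 33 in mixed BL and 7 to 28 in C57B6. Within mixed BL 0.486% of all genes passed for passage and none of the 10 did. At an unadjusted p under 0.05, 2 of the 10 were lower there (Mmp14 and Timp2), against 10.6% of all genes. Within C57B6 0.0% of all genes passed, and 6 of the 10 were lower at an unadjusted p under 0.05 (Mmp2, Mmp3, Mmp13, Mmp14, Timp1 and Timp2), against 6.55% of all genes. The limma adjusted p of these 6 ran from 0.289 to 0.418. In mixed BL Timp2 was closest to the threshold, at -0.70 ± 0.10 (SE, limma adjusted p = 0.0702), followed by Mmp14 at -0.81 ± 0.17 (limma adjusted p = 0.116).

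Smurf2-/- cells were compared with wild-type cells next, over both backgrounds and passage classes. The fitted difference was below 0 for 8 of the 10 genes and for 44.5% of all genes, with a median of -0.19 over the 10 and 0.015 over all genes. None of the 10 passed the limma test, against 0.0286% of all genes. Timp2 differed by -0.31 ± 0.067 (SE, 95% interval -0.48 to -0.15, limma adjusted p = 0.651) and was lower in Smurf2-/- in 4 of 4 pairs, which ranged from -0.48 to -0.20. Mmp2 differed by -0.49 ± 0.19 (limma adjusted p = 0.651), also lower in 4 of 4 pairs, from -0.72 to -0.18. With Mmp3, 3 of the 10 were lower in 4 of 4 pairs, against 9.35% of all genes. Mmp13 differed by -0.98 ± 0.37 (limma adjusted p = 0.651), with the early C57B6 pair at -2.08, the early mixed BL pair at -0.87, the late mixed BL pair at -1.07 and the late C57B6 pair at 0.099. Without the early wild-type C57B6 array the Mmp13 difference was -0.59.

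For Mmp3 the genotype difference of -0.94 ± 0.68 (SE, limma adjusted p = 0.726) came almost wholly from the early C57B6 pair. That pair differed by -3.19, or 9.11-fold, and the other 3 pairs by -0.18, -0.19 and -0.18, and without the early wild-type C57B6 array the difference was -0.12. Timp3 differed by -0.71 ± 0.38 (limma adjusted p = 0.666). Its late C57B6 pair stood at -2.20, or 4.59-fold lower, while its late mixed BL pair stood at 0.18, and without the late Smurf2-/- C57B6 array the difference was -0.31. The Timp3 difference in mixed BL, -0.035 ± 0.39, minus that in C57B6, -1.38 ± 0.39, was 1.34 ± 0.56 (SE, limma adjusted p = 0.939). It was 0.74 without the late Smurf2-/- C57B6 array and 0.86 without the late wild-type C57B6 array, and 1.95 without the early Smurf2-/- C57B6 array. For this interaction 0.0% of all genes were called.

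Mmp9, Mmp10, Mmp11, Mmp14 and Timp1 had genotype differences between -0.068 and 0.075, with limma adjusted p from 0.762 to 0.993. Their 95% intervals ran from -0.085 to 0.23 for Mmp9, from -0.18 to 0.13 for Mmp10, from -0.45 to 0.47 for Mmp11, from -0.37 to 0.23 for Mmp14 and from -0.44 to 0.34 for Timp1, so differences of these sizes remain possible. The direction for Mmp14 and Timp1 turned under quantile normalisation and that for Mmp11 when arrays were centred on their median. An unadjusted p under 0.05 with a lower value was found for 3 of the 10 (Mmp2, Mmp13 and Timp2) and for 4.42% of all genes. Timp2 was in this count whichever array was left out, and the count was then 1 or 2. In no member did the Smurf2-/- arrays lie wholly below the wild-type arrays, as they did in 1.02% of all genes.

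Mixed BL cells were compared with C57B6 cells last. The backgrounds also differed in passage number (33 and 6 against 28 and 7) and in embryos per culture (3 or 2 against 1). These cannot be told apart from background here. Mmp2 differed by -0.61 ± 0.19 (SE, 95% interval -1.07 to -0.16, limma adjusted p = 0.253) and was lower in mixed BL in 4 of 4 pairs. The pairs differed by -0.067 in late Smurf2-/-, -0.42 in late wild-type, -1.24 in early Smurf2-/- and -0.72 in early wild-type cells. Mmp14 and Mmp11 were also lower in mixed BL in 4 of 4 pairs, by -0.28 ± 0.12 and -0.29 ± 0.19 (SE), with limma adjusted p of 0.404 and 0.598. In late wild-type cells Mmp11 differed by -0.92, and in the other 3 pairs by -0.13 to -0.023. Without the late wild-type C57B6 array the difference was -0.071 for Mmp11 and -0.15 for Mmp14. None of the 10 passed, against 0.08% of all genes, and 3 of the 10 were lower in 4 of 4 pairs against 9.93% of all genes. Mmp2 alone had an unadjusted p under 0.05 with a lower value, as 6.62% of all genes had. Mmp3 differed by -0.87 ± 0.68 (SE), and by -0.054 without the early wild-type C57B6 array. Timp3 was the member with the highest value in mixed BL relative to C57B6, at 0.58 ± 0.38 (SE, limma adjusted p = 0.598), and 0.19 without the late Smurf2-/- C57B6 array. Mmp9, Mmp10, Mmp13, Timp1 and Timp2 had fitted differences between -0.074 and 0.070. For Mmp13 the wild-type pairs were of opposite sign, at -1.005 in early and 1.08 in late cells. Its Smurf2-/- pairs stood at 0.21 and -0.090, and its 95% interval ran from -0.86 to 0.96. The wild-type pairs of Timp1 were also opposed, at -0.60 in early and 0.44 in late cells (95% interval -0.47 to 0.32). Differences of these sizes therefore remain possible for both.

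**Figure D4:**
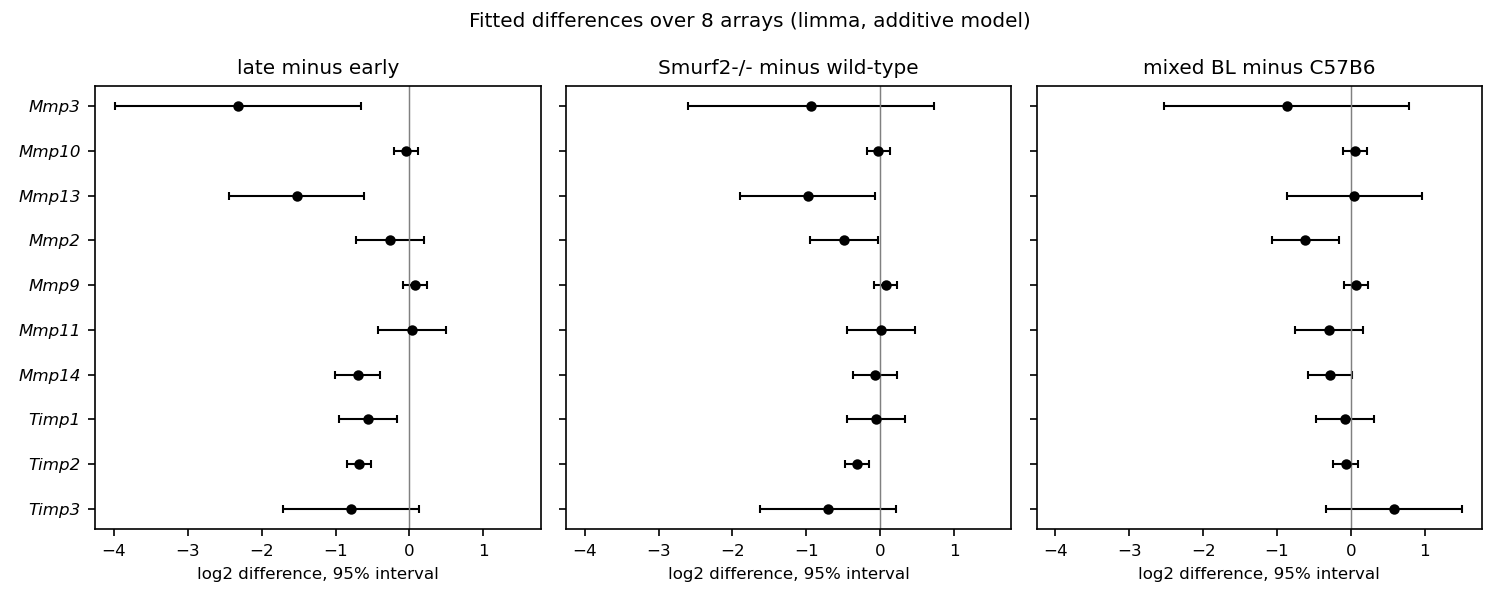
Fitted log2 differences with 95% intervals (horizontal axis, same scale in each panel) of the 10 genes from the additive limma model over 8 arrays, for late minus early passage, Smurf2-/- minus wild-type and mixed BL minus C57B6. Intervals are per gene and not adjusted for the number of genes. For passage those of Mmp3, Mmp13, Mmp14, Timp1 and Timp2 lie below 0, and for genotype the Timp2 interval runs from -0.48 to -0.15.

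Proteinases and inhibitors were also set against each other on the same arrays, as the difference of their centred values, which shows a shift between arrays and no ratio of amounts. Mmp14 minus Timp2 had a range of 0.54 log2 units over the 8 arrays, as wide as the median range of single genes, 0.54. The fitted passage differences of the 2 genes were -0.70 and -0.68. Mmp14 minus Timp3 had a range of 1.94, from -0.48 in early wild-type mixed BL to 1.46 in late Smurf2-/- C57B6. Mmp3 minus Timp1 lay between -0.62 and -0.24 in the 4 late arrays, against 0.34 to 0.73 in 3 of the 4 early arrays and 3.50 in the early wild-type C57B6 array. Mmp2 minus Timp2 was 0.16 in Smurf2-/- and 0.29 in wild-type cells of mixed BL at late passage, against -0.77 and -0.41 at early passage. In C57B6 it was 0.26 in Smurf2-/- and 0.50 in wild-type cells at late passage, against 0.36 and 0.33 at early passage. Mmp2, which was not lower in every late array, thus stood higher relative to Timp2 at late passage in 3 of the 4 pairs.

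Of 17 other genes of the MMP and TIMP families, 12 had a value, and 0 passed the test for passage in either direction. At an unadjusted p under 0.05, 0 were higher and 3 lower, against 10.3% of all genes lower. Mmp23 differed by -0.86 ± 0.28 (SE), Mmp12 by -0.61 ± 0.18, the membrane-type gene Mmp16 by -0.59 ± 0.22 and the membrane-type gene Mmp24 by 0.16 ± 0.079. The first 3 were lower in 4 of 4 pairs and Mmp24 was higher in 4 of 4, with limma adjusted p from 0.200 to 0.368. Over all genes 11.9% were lower in 4 of 4 pairs. The genes named here and in the family and pathway lists below were those with the smallest p for passage. That choice, made on the same arrays, favours genes with the same sign in 4 of 4 pairs. Such signs of named list genes, here and below, therefore add nothing to the p. The median of the 12 was 0.048.

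ADAM and ADAMTS proteinases, relatives of the MMPs that shed cell surface proteins and cleave proteoglycans, had values for 15 of 16 listed genes. They were lower at late passage in 12 of 15, against 42.5% of all genes, with a median of -0.26, and 6 of 15 had an unadjusted p under 0.05, all lower, against 10.3% of all genes. Adam19 differed by -1.18 ± 0.22 (SE), Adam12 by -1.04 ± 0.30, Adam15 by -0.51 ± 0.13 and Adam9 by -0.44 ± 0.088, each lower in 4 of 4 pairs. Limma called none of the 15, with adjusted p from 0.122 to 0.195 for these 4.

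The plasminogen system and other regulators of MMPs were lower in 13 of 17 measured genes of 20 listed (42.5% of all genes), with a median of -0.30. An unadjusted p under 0.05 was found for 7 of the 17, all lower (10.3% of all genes). Cathepsin K, a collagen-degrading lysosomal proteinase encoded by Ctsk, differed by -2.47 ± 0.51 (SE), and Ctsb, the cathepsin B gene, by -0.84 ± 0.087. Plau, which encodes urokinase, an activator of plasminogen and through it of MMP proenzymes, differed by -0.93 ± 0.25. Furin, the gene of the convertase that activates Mmp11 and Mmp14, differed by -0.48 ± 0.12. All 4 were lower in 4 of 4 pairs, with limma adjusted p of 0.131, 0.0589, 0.172 and 0.169, none called.

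The genes of AP-1 and Ets transcription factors, which act on MMP promoters, were measured for 18 of 19 listed. At late passage 10 of the 18 were lower (42.5% of all genes), with a median of -0.060. None was called, and at an unadjusted p under 0.05 there were 5 lower, against 10.3% of all genes, and 1 higher. Jun differed by -0.87 ± 0.16, Fos by -1.01 ± 0.29 and Ets1 by -0.64 ± 0.078 (SE), each lower in 4 of 4 pairs, with limma adjusted p of 0.122, 0.188 and 0.0784. Batf3 differed by 0.23 ± 0.055 and was higher in 4 of 4 pairs (limma adjusted p = 0.156). The summed values of the 18 genes lay between -2.42 and 0.64 in late arrays and between -0.78 and 9.91 in early arrays. The highest was the early wild-type C57B6 array, in which Mmp3 and Mmp13 were highest. The early wild-type mixed BL array, at -0.78, was the lowest of the early arrays, and Mmp13 was next highest there, at 1.03. A part of these factors in the MMP values was not tested.

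Matrix proteins that MMPs cleave were lower at late passage in 17 of 20 measured genes of 22 listed (42.5% of all genes), with a median of -0.40. At an unadjusted p under 0.05, 3 of the 20 were lower (10.3% of all genes), and none was called. Tnc, the tenascin C gene, differed by -0.65 ± 0.17 (SE), Bgn, the biglycan gene, by -0.53 ± 0.16, Lamb1, a laminin chain gene, by -0.55 ± 0.18 and Dcn, the decorin gene, by -1.93 ± 0.88. The first 3 were lower in 4 of 4 pairs and Dcn in 3 of 4, with limma adjusted p from 0.166 to 0.329.

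The values of cell type markers were set beside these results. Fibroblast markers, 4 of which (Col1a1, Col1a2, Col3a1 and Dcn) are also among the matrix proteins above, were lower at late passage in 11 of 11 (42.5% of all genes), with a median of -0.37, and their summed values ran from -9.10 to 6.72 in late and from -1.32 to 8.09 in early arrays. Macrophage and leukocyte markers were lower in 8 of 12 (42.5% of all genes). Their sums just failed to overlap, at -0.95 to -0.020 in late and 0.0095 to 5.02 in early arrays. This was not particular to them. Late and early sums were also apart for the other MMP and TIMP genes (-1.47 to -0.11 and 0.24 to 1.44). So were those of the plasminogen system list (-6.48 to -3.24 and 1.25 to 3.84) and of the matrix proteins (-12.7 to 0.48 and 2.44 to 4.69). Among the macrophage and leukocyte markers Lyz2 differed by -1.72 ± 0.52 (SE) and Cd68 by -0.89 ± 0.15. The markers Ptprc, Adgre1 and Csf1r, which define the cell type, differed by -0.034 ± 0.073, -0.096 ± 0.078 and 0.094 ± 0.16. Mmp12, Mmp9 and the cathepsin genes are also expressed by macrophages. The part of any of these cell types in the MMP and TIMP values was not tested.

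Endothelial markers were lower in 4 of 8 (42.5% of all genes), with sums of -0.43 to 0.64 in late and -1.04 to 2.45 in early arrays. Epithelial and keratinocyte markers were lower in 2 of 9 (42.5% of all genes), with sums of -0.52 to 3.36 in late and -0.98 to 1.10 in early arrays. Cartilage and bone markers, of interest because Mmp13 is a gene of hypertrophic cartilage and bone, were lower at late passage in 5 of 10 (42.5% of all genes). Between genotypes they were lower in 8 of 10 in Smurf2-/-, against 44.5% of all genes, with a median of only -0.11. At an unadjusted p under 0.05, 1 of the 10 was lower, against 4.42% of all genes. The sums of the 10 did not overlap, at -1.31 to -0.45 in Smurf2-/- arrays against 1.93 to 5.67 in wild-type arrays. This is a description with no share of all genes to set beside it, and a few wide-ranging genes can carry a sum. No gene of these 5 marker lists passed the limma test for passage or genotype. Their part in the lower Mmp13 values of Smurf2-/- cells was not tested.

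The genes whose values were most like those of the 3 widest-ranging members were sought among 3450 genes with a range of at least 1 log2 unit, by Pearson r over the 8 arrays. The r is a measure of likeness only, as the arrays share passage, genotype and background, and 1 array stands apart for Mmp3 and for Timp3 and 2 arrays are the highest for Mmp13. For Mmp3 they were Adcy2 (r = 0.96), Pi15 (0.94) and Gpm6b (0.94), each highest in the early wild-type C57B6 array, at 1.87, 2.12 and 3.59. For Mmp13 they were Gpx3 (0.93), Bmp5 (0.92) and Agtr2 (0.90), of which Gpx3 encodes a secreted glutathione peroxidase, Bmp5 a bone morphogenetic protein and Agtr2 an angiotensin receptor. All 3 were highest in the early wild-type C57B6 array and next in the early wild-type mixed BL array, as Mmp13 was. For Timp3 they were Aspn (0.96), the asporin gene of the small leucine-rich proteoglycans, Abca3 (0.96) and Ap5m1 (0.95), each lowest in the late Smurf2-/- C57B6 array, at -3.56, -0.78 and -0.88.

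**Figure D5:**
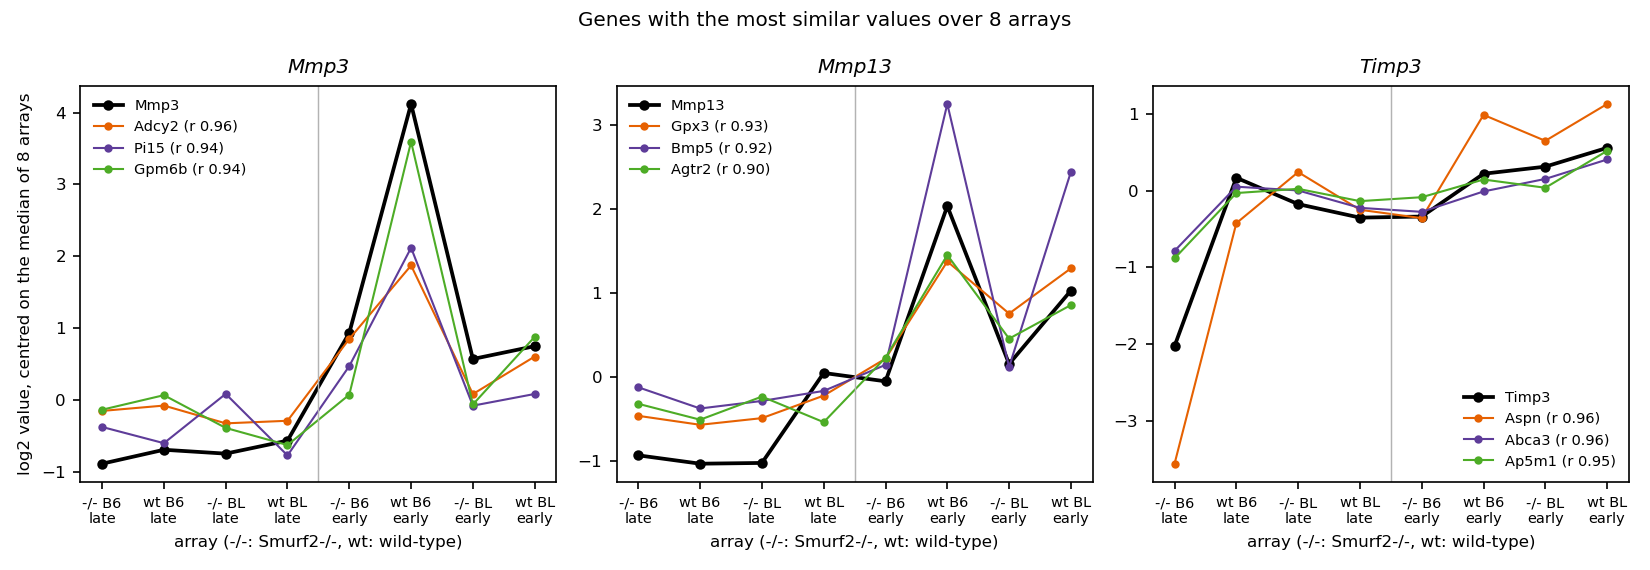
Log2 values, centred on each gene's median (vertical axis), of Mmp3, Mmp13 and Timp3 in black and of the 3 genes most like each in colour, on the 8 arrays (horizontal axis, the 4 late arrays left of the line and the 4 early arrays right of it, B6 for C57B6 and BL for mixed BL). Mmp3 and its like genes peak in the early wild-type C57B6 array, where Mmp3 is at 4.12, and Timp3 and its like genes are lowest in the late Smurf2-/- C57B6 array, where Timp3 is at -2.03.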

How the data were processed

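Total RNA of 8 fibroblast samples was biotin-labelled and hybridised to Affymetrix arrays, per the labels' protocols. The deposited values were taken as log2 values, and every fold rests on this. In 97.0% of clusters they were whole multiples of the numerical step of numbers from 4 to 8, with values over 1 in size not checked. Larger numbers, with coarser steps, pass the same check. That match therefore gives neither the range of the values before centring nor the base of the logarithm. Every cluster has a median of 0 (largest size 5e-07). The sources used here give neither the normalisation nor the probe summary, and the submitters' processing notes list the builds mm8 and mm9 without a role. Of 24169 clusters, 19134 had 1 gene symbol, 1230 several and 3805 none in GEO's platform annotation. Symbols were updated by gene identifier for 19067 clusters (RefSeq, GRCm38.p6), and clusters of a gene were averaged, giving 17501 genes.

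All genes were fitted with limma 3.58.1 (R 4.3.3, eBayes without a trend) on genotype, background and passage class, or with 1 interaction added, and p-values were adjusted by Benjamini-Hochberg over all 17501 genes at a threshold of 0.05. Fits were tested on simulated data. The number that ends each title follows the passage class, so it marks no separate replicate. The additive fit held no term for pairs of arrays of the same genotype and background. Dim clusters could not be filtered, since centred values hold no level, and the number of arrays limits the precision. All comparisons share the same arrays and are not independent. Arrays were left out in turn, and normalisation, centring, trend, filter and model terms were varied. The naming rule took all 10 members, up to 4 genes per pathway list by p for passage, and 3 genes most like each of the 3 widest-ranging members. Members and lists were chosen with earlier results of these data known. Protein sequences were not used here.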

Additional observations from a re-analysis of the deposited data

Results flagged for a closer look

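Among the 10 genes and the 4-array levels of passage class, genotype and background, 60 groups of 4 were tested for a sample far from the others, and 2 were marked, where chance marks about 3. Mmp3 in early arrays was at 4.12 in wild-type C57B6, with the other 3 early arrays at 0.57, 0.75 and 0.93. Mmp13 in late arrays was at 0.0496 in wild-type mixed BL, with the other 3 late arrays at -1.03, -1.02 and -0.93. No interaction of passage or genotype passed the test for any of the 10.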

How the results depend on the processing

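None of the 10 genes was called in 85 of the 86 recounts over 6 comparisons. The exception was Timp2 for passage, where 1 gene was called with a mean-variance trend. For the interactions, no gene of the whole series was called under any setting. The same held in several settings of passage and genotype. Those recounts therefore say nothing particular to the 10. Of the alternatives that keep all arrays, only quantile normalisation and array centring can move a member's difference, since the design is balanced and each member has 1 cluster. Under these, 63 of 66 values had the same direction. The others change only the error, the p and the genes it is adjusted over. With 1 array left out, 246 of 264 values had the same direction and side of the threshold. Genotype differences turned to 0.014 for Mmp14 and 0.051 for Timp1 under quantile normalisation and to -0.0046 for Mmp11 with arrays centred on their median. With 1 array left out, values spanned 0 for passage in Mmp11 (-0.18 to 0.17), for genotype in Mmp10 (-0.060 to 0.023), Mmp11 (-0.105 to 0.23), Mmp14 (-0.15 to 0.064) and Timp1 (-0.19 to 0.079), and for background in Mmp13 (-0.33 to 0.435) and Timp1 (-0.20 to 0.060). The count of genes lower at an unadjusted p under 0.05 for genotype, 3, was 1 under quantile normalisation. It was also 1 without the passage class term, and 1 to 2 with 1 array left out. For background, 1, it was 2 under quantile normalisation and 0 to 2 with 1 array left out. The causes were not tested. Over all genes, 3 were called for passage, and 25 with the trend, 29 without the least variable genes, 0 with clusters fitted singly and 0 to 2 with 1 array left out. For genotype 5 were called, and 0 under quantile normalisation or centring and 0 to 1 with 1 array left out. For background 14 were called, and 1 under quantile normalisation, 66 with clusters fitted singly and 1 to 21 with 1 array left out. Without the passage class term, which cannot move the difference here, the SE of the Timp2 genotype difference of -0.31 was 0.27 in place of 0.067. Timp2 and Mmp13 then left the count at an unadjusted p under 0.05, where Mmp2 stayed. Over all genes 4 in place of 5 were called. Signal over background is unknown here, which limits what the flat values of Mmp9 and Mmp10 show.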
